A study of Mus musculus with 6 samples.

Results

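The heat shock chaperones described here are 10 genes of the cytosol and the mitochondrion, found by an exact match of the gene symbol among the 23207 symbols of the deposited count table. All 10 (Hspa1a, Hspa1b, Hspa8, Hsph1, Dnajb1, Hsp90aa1, Hsp90ab1, Hspb1, Hspd1 and Hspe1) were present, and all 10 passed the filter on low counts, which kept 19745 genes. They were measured by bulk RNA sequencing of splenic endothelial cells, 1 library per mouse, from Apoe-knockout mice, a model of high blood cholesterol and atherosclerosis. Mice 1603, 1604 and 1607 had received an ASO (antisense oligonucleotide, which binds a matching RNA and lowers its amount) against Mlkl, whose protein ruptures the plasma membrane in necroptosis, and mice 1601, 1602 and 1608 a control ASO. Both groups were Apoe-knockout and had 8 weeks of ASO and high cholesterol diet, so neither group was untreated. The sources used here do not give the age of the mice, the way the endothelial cells were isolated or the cells that took up the ASO.

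Heat shock proteins hold unfolded proteins, refold them or pass them on for degradation. The transcription factor HSF1 raises the inducible genes within minutes of heat, oxidants or other damage to proteins, by binding repeated short elements in their promoters, while constitutive members serve newly made proteins at all times. In endothelium they are known for stabilising signalling proteins, among them the nitric oxide synthase that HSP90 binds, and inducible members also respond to the handling of tissue when cells are isolated.

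Library totals were 59988846 to 85724084 estimated counts in MLKL ASO mice and 67699450 to 87776706 in control ASO mice. Mlkl measured 7.53, 5.81 and 3.74 CPM in MLKL ASO mice 1603, 1604 and 1607, against 30.7, 31.2 and 38.0 CPM in control mice 1601, 1602 and 1608. CPM is the count of a gene relative to the TMM-scaled library total, and values stand in these orders of mice throughout. All 16 pan-endothelial markers were measured, with summed levels of 4159 to 4666 CPM in MLKL ASO mice and 3290 to 6071 CPM in control mice, and 0 of them were at 0 in any mouse. RNA of other cells was present too. The summed level of 12 erythroid markers was 70407 to 159236 CPM in MLKL ASO mice and 46405 to 129268 CPM in control mice, and that of 15 T and NK cell markers 219 to 295 CPM in MLKL ASO mice and 322 to 812 CPM in control mice.

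Hspa1a and Hspa1b encode the stress-inducible HSP70 and lie as near-identical copies on chromosome 17. Their promoters are shown because the copies share almost all of these letters while their counts differ widely. The sequences are the 250 bases before the start of each gene, from RefSeq in build GRCm38.p6 (Hspa1a at chr17:34972157-34972406, minus strand, Hspa1b at chr17:34959239-34959488, minus strand), 5′ to 3′, with the bases that differ in capitals.
Hspa1a: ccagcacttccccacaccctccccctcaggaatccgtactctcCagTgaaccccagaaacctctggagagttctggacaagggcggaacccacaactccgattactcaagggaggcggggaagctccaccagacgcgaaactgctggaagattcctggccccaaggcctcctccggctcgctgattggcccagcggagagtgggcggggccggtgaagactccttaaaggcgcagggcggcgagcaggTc
Hspa1b: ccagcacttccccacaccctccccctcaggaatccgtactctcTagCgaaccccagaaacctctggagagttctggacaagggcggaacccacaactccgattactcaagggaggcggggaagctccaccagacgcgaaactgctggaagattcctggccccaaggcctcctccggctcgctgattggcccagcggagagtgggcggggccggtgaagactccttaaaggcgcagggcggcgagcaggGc
Of these 250 bases 247 are identical (98.8%). The differences are C44T, T47C and T249G, counted from 1 at the 5′ end of the stretch, with the base of Hspa1a first. Both copies hold the letters GAAGATTC, beginning 104 bases before the start. These letters match the paired heat shock unit GAANNTTC, in which units of the HSF1 element face each other.

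Hspd1 and Hspe1, which encode the mitochondrial chaperonin HSP60 and its lid HSP10, stand head to head on chromosome 1. The stretch below lies before the start of Hspe1 on the plus strand and before an annotated start of Hspd1 on the minus strand. It is shown because both genes share it and because it holds the longest run of heat shock units found (chr1:55087933-55088147, plus strand, GRCm38.p6, RefSeq). Capitals mark paired units, which overlap here.
Hspe1 and Hspd1: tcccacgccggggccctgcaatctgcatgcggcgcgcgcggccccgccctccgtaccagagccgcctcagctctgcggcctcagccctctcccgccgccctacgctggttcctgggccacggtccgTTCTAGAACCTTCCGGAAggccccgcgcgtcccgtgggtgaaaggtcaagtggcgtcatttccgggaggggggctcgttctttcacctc
Hspb1 encodes a small heat shock protein that keeps unfolded proteins soluble. The stretch shown for it holds 2 separate paired units, in capitals (chr5:135887782-135887849, plus strand, GRCm38.p6, RefSeq).
Hspb1: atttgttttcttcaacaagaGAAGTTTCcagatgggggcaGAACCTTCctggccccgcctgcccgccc

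Promoter entries were found for 7 of the 10 genes, and not for Hspa8, Hsp90aa1 and Hsp90ab1. Of the 10 windows of these 7 genes, 7 held GAANNTTC or TTCNNGAA within the 250 bases before the start, compared with 12.8% of 32851 windows over all genes. Both motifs read the same on either strand. The windows with a match belonged to 6 genes, and neither window of Dnajb1 held one. These windows are not all separate sequences. Those of Hspa1a and Hspa1b are near-identical, both of Hsph1 hold the same site, and Hspd1 and Hspe1 share a stretch. The motif of 3 units, GAANNTTCNNGAA on either strand, which contains the paired unit, stood in 0.466% of all windows, and among these genes only in the window of Hspe1 and in the Hspd1 window that shares this stretch. A match describes these letters and no binding was measured.

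In edgeR's quasi-likelihood test with Benjamini-Hochberg adjustment over all genes, 0 of the 10 genes passed an adjusted p of 0.05. The background was 0.00506% of genes higher and 0.00506% lower, 0.0101% in all. Mlkl itself, at a log2 fold change of -2.55, did not pass in edgeR either (adjusted p = 0.0655). It passed in DESeq2 (adjusted p = 2.07e-15) and in limma-voom (adjusted p = 0.0186). At an unadjusted p under 0.05 in edgeR 3 of the 10 genes were lower and 0 higher in MLKL ASO mice, where the background was 4.89% of genes higher and 6.96% lower. DESeq2 also called 0 of the 10 (background 1.09% higher, 1.33% lower and 2.42% in all). At an unadjusted p under 0.05 3 were lower and 0 higher (background 7.51% and 6.24%). Limma-voom with sample weights called 0 as well (background 0.0456% higher, 0.0658% lower and 0.111% in all), and 3 had an unadjusted p under 0.05, all lower (background 9.17%, and 8.54% higher). The 3 genes were Hspa1a, Dnajb1 and Hspa8 with each of these tools. The groups did not overlap for these 3, all lower in MLKL ASO mice (background 9.71%), nor for Hspd1, which was higher (background 9.02%).

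**Figure D1:**
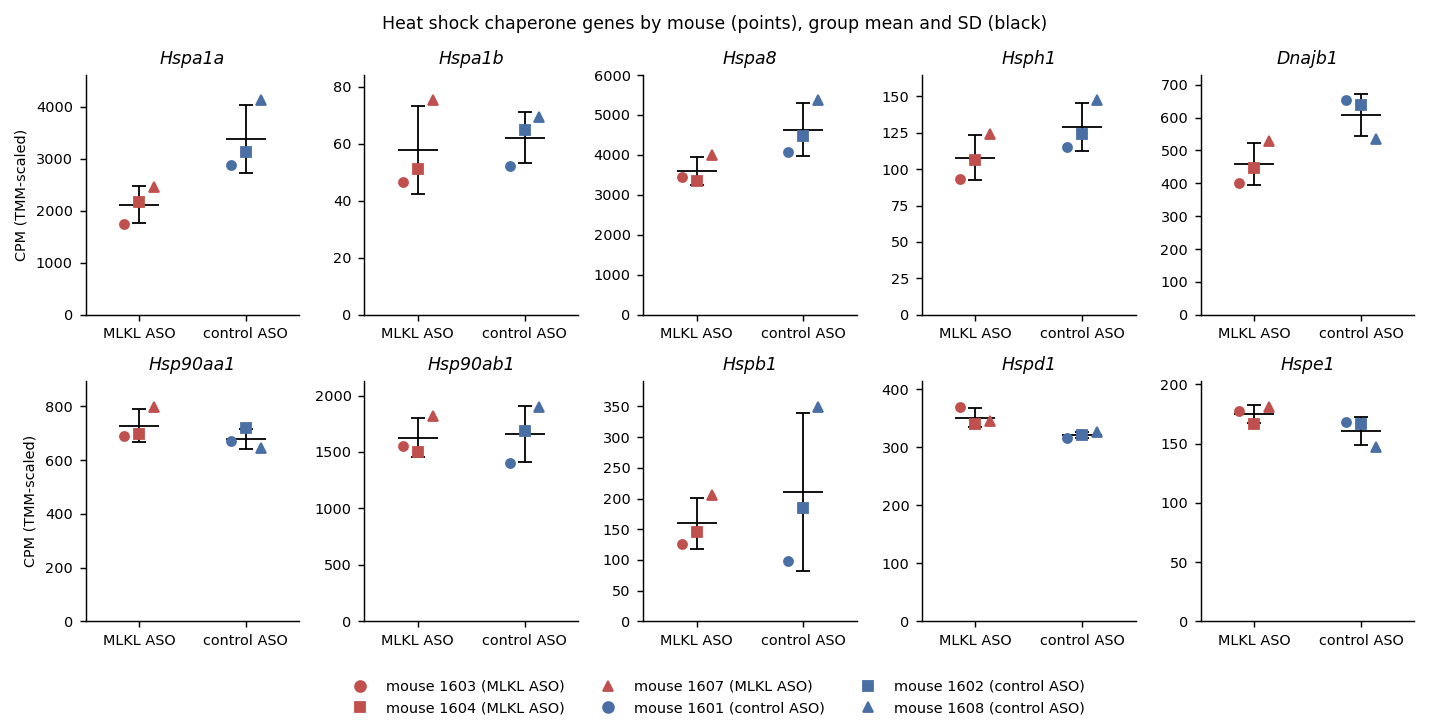
CPM (TMM-scaled, vertical axis from 0) of the 10 heat shock chaperone genes in each mouse, MLKL ASO left and control ASO right; points are mice, black lines the mean and SD of 3 mice. Hspa1a, Hspa8 and Dnajb1 are lower in every MLKL ASO mouse than in any control mouse, Hspd1 is higher, and the other 6 genes overlap.

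The largest difference among the 10 genes was that of Hspa1a. It measured 1736, 2157 and 2457 CPM in MLKL ASO mice, against 2878, 3129 and 4120 CPM in control mice. The highest MLKL ASO mouse, 1607, lay under the lowest control mouse, 1601, and mouse 1608 stood highest of all. Means were 2116 ± 362 CPM in MLKL ASO mice and 3376 ± 657 CPM in control mice (SD, n = 3 each). This is a log2 fold change of -0.67 (SE 0.19, 95% interval -1.11 to -0.24), with an edgeR adjusted p of 0.327. In bulk samples such as these, fewer cells of a type and less RNA per cell cannot be told apart.

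Hspa1b gave few counts beside its copy, with 46.7, 51.2 and 75.3 CPM in MLKL ASO mice and 52.1, 65.0 and 69.2 CPM in control mice. Its groups overlapped, with MLKL ASO mouse 1607 highest of all. The log2 fold change was -0.11, with a 95% interval of -0.59 to 0.38 and an edgeR adjusted p of 0.881, and without mouse 1603 it was 0.012. How reads were divided between the copies is uncertain, since 65.4% of the 31-base words of the Hspa1a transcript occur in transcripts of other genes and 63.8% in those of Hspa1b (GENCODE M21). With the counts of both copies added, the log2 fold change was -0.66 (SE 0.19; edgeR adjusted p = 0.33), close to that of Hspa1a alone.

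The ratio between the copies within a library, which does not depend on scaling, also separated the groups. There were 37.1, 42.1 and 32.6 counts of Hspa1a per count of Hspa1b in MLKL ASO mice, against 55.2, 48.2 and 59.5 in control mice. The mean log2 ratio was 5.21 ± 0.18 in MLKL ASO mice and 5.76 ± 0.15 in control mice (SD, n = 3 each), a difference of -0.54. Its exact two-sided permutation p of 0.1 is the smallest that 3 mice against 3 allow, and was 0.25 after adjustment over the 5 ratios tested. Since the shared words leave the division to the counting tool, a ratio of transcripts and a ratio of assigned counts cannot be told apart here.

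Hspa8 encodes HSC70, the constitutive partner of HSP70, which folds new proteins and strips clathrin from vesicles. Its levels were 3436, 3351 and 4010 CPM in MLKL ASO mice, against 4076, 4463 and 5368 CPM in control mice. The gap between the groups was narrow, with mouse 1607 just under control mouse 1601. The log2 fold change was -0.37 (SE 0.14, 95% interval -0.70 to -0.031; edgeR adjusted p = 0.395). Most of its transcript is not unique, as 77.2% of its 31-base words occur in transcripts of other genes, and 74.3% in Gm15459 alone.

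Dnajb1 encodes the J-domain protein that hands clients to HSP70 and starts its ATP cycle. It measured 401, 446 and 528 CPM in MLKL ASO mice, against 653, 637 and 535 CPM in control mice. Here mouse 1608, which was highest for Hspa1a and Hspa8, was the lowest control mouse, only just above MLKL ASO mouse 1607. Means were 458 ± 64.4 CPM in MLKL ASO mice and 608 ± 63.8 CPM in control mice (SD, n = 3 each), a log2 fold change of -0.41 (SE 0.14, 95% interval -0.74 to -0.075; edgeR adjusted p = 0.372). With 0.441% of its 31-base words found in other genes, its counts do not rest on shared sequence.

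Hsph1 encodes HSP110, which exchanges the nucleotide of HSP70. It measured 93.0, 106 and 124 CPM in MLKL ASO mice and 116, 124 and 147 CPM in control mice, and the groups overlapped. The log2 fold change was -0.26 with a 95% interval of -0.61 to 0.099 (edgeR adjusted p = 0.546), and without mouse 1608 it was -0.15. None of its 31-base words occurs in another gene (0%).

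Within the HSP70 machine, the inducible copies were lower relative to the constitutive gene in MLKL ASO mice. Hspa1a and Hspa1b together stood at 0.519, 0.659 and 0.631 of the CPM of Hspa8 in MLKL ASO mice, against 0.719, 0.716 and 0.780 in control mice. The mean log2 ratio was -0.74 ± 0.18 in MLKL ASO mice and -0.44 ± 0.070 in control mice (SD, n = 3 each), a difference of -0.30 without overlap between the groups. The exact two-sided permutation p was 0.1, the smallest possible, and 0.25 after adjustment over the 5 ratios. The ratio of Dnajb1 to Hspa8 showed no such separation, with a log2 difference of -0.052 (exact two-sided permutation p = 0.8) and mouse 1608 lowest at 0.10, against 0.16 in mouse 1601.

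**Figure D2:**
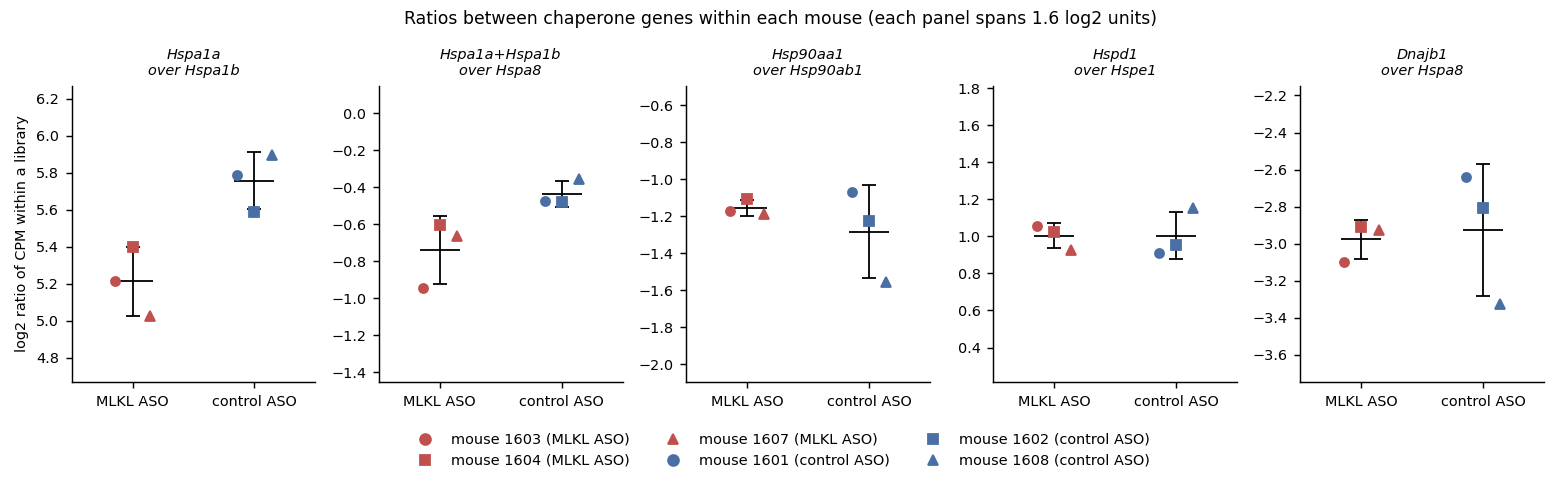
Log2 ratio of CPM between pairs of chaperone genes within each library (vertical axis; each panel has its own centre and spans 1.6 log2 units), MLKL ASO left and control ASO right, with mice as points and mean and SD in black. The ratio of Hspa1a to Hspa1b and that of both to Hspa8 are lower in every MLKL ASO mouse than in any control mouse, while the other 3 ratios overlap.

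The HSP90 genes differed little between the groups. Hsp90aa1, the inducible form of this chaperone of kinases and steroid receptors, measured 691, 696 and 799 CPM in MLKL ASO mice and 670, 720 and 646 CPM in control mice. The groups overlapped, and the log2 fold change was 0.10 with a 95% interval of -0.16 to 0.36 (edgeR adjusted p = 0.752). It was 0.030 without mouse 1607 and 0.034 in limma-voom. Hsp90ab1, the constitutive form, measured 1556, 1497 and 1821 CPM in MLKL ASO mice and 1403, 1682 and 1900 CPM in control mice. Its control mice spanned all MLKL ASO mice, and the log2 fold change was -0.033 with a 95% interval of -0.38 to 0.31 (edgeR adjusted p = 0.958). The log2 ratio of Hsp90aa1 to Hsp90ab1 was -1.16 ± 0.045 in MLKL ASO mice and -1.28 ± 0.25 in control mice (SD, n = 3 each; exact two-sided permutation p = 0.6). Mouse 1608 alone was low, at -1.56, and without it the difference of 0.13 became -0.0095.

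Hspb1 varied most from mouse to mouse. It measured 127, 146 and 206 CPM in MLKL ASO mice, against 97.4, 185 and 349 CPM in control mice. The control mice held both the lowest and the highest value, 3.59 times apart, compared with 1.63 times among MLKL ASO mice. The log2 fold change of -0.40 had a 95% interval of -1.40 to 0.61 (edgeR adjusted p = 0.751), and without mouse 1608 it was 0.18. Of its 31-base words 61.7% also occur in Hsp25-ps1.

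The mitochondrial chaperonin genes differed little between the groups. Hspd1 measured 370, 339 and 345 CPM in MLKL ASO mice, against 317, 322 and 327 CPM in control mice. Each MLKL ASO mouse was above each control mouse, but by little, with a log2 fold change of 0.13 and a 95% interval of -0.10 to 0.35 (edgeR adjusted p = 0.642), and 0.077 without mouse 1603. Hspe1 measured 178, 167 and 181 CPM in MLKL ASO mice and 168, 166 and 147 CPM in control mice, with an overlap between mice 1604 and 1601. Its log2 fold change was likewise 0.13, with a 95% interval of -0.13 to 0.38 (edgeR adjusted p = 0.683), and without mouse 1608 it was 0.067.

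The mean log2 ratio of Hspd1 to Hspe1 was 1.004 ± 0.067 in MLKL ASO mice and 1.005 ± 0.13 in control mice (SD, n = 3 each), a difference of -0.0011 (exact two-sided permutation p = 1, and 1 after adjustment). Among control mice, Hspe1 was lowest and Hspd1 highest in mouse 1608, whose ratio was the highest of all at 1.15. The annotated transcripts of this pair overlap on opposite strands near their starts. The library kit marks strand, and the sources used here do not say whether the counting used it. Of the 31-base words of Hspd1 55.8%, and of Hspe1 48.1%, occur in other genes. The 4 rows of the count table named as further copies of Hspd1 or Hspe1 held at most 69.1 estimated counts in a library.

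**Figure D3:**
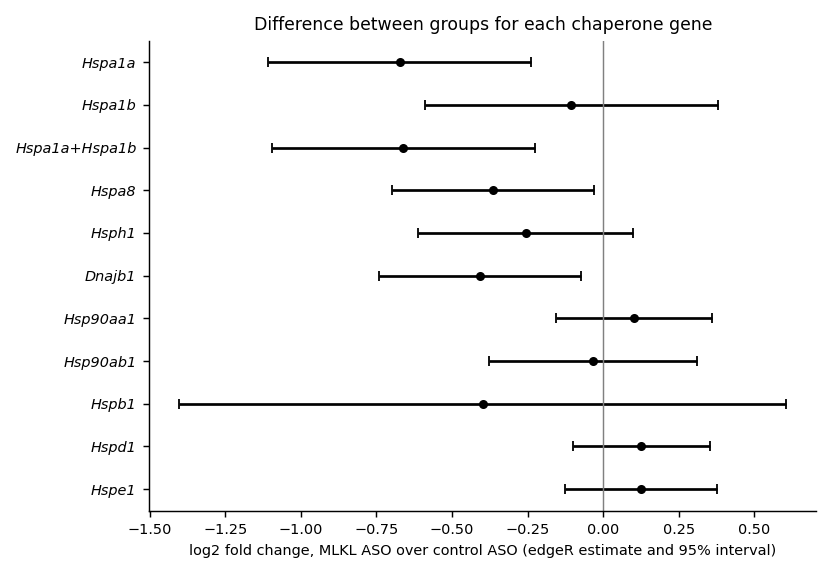
Log2 fold change, MLKL ASO over control ASO (horizontal axis), of each chaperone gene and of the summed Hspa1a and Hspa1b counts; points are edgeR estimates and bars 95% intervals before any adjustment. The intervals of Hspa1a, the summed pair, Hspa8 and Dnajb1 lie below 0 and all others include 0, while no adjusted p passed 0.05.

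As a group, 7 of the 10 genes had a log2 fold change below 0 and 3 above, where 51.2% of all genes were below and 48.8% above. The median was -0.18, compared with -0.0092 over all 19745 genes. It was 0.023 without mouse 1608 and -0.36 without mouse 1607. The 10 genes together took 0.886%, 0.862% and 1.09% of all counts in MLKL ASO mice, against 0.959%, 1.17% and 1.42% in control mice. The groups overlapped in this share, since MLKL ASO mouse 1607 was above control mouse 1601. Among all mice, 1608 was highest for 5 genes and 1607 for 3, while 1603 was lowest for 4 and 1601 for 3. Among control mice alone, 1608 was highest for 7 genes and 1601 lowest for 7. Mouse 1608 also had the highest summed level of pan-endothelial markers, 6071 CPM, and 1601 the lowest, 3290 CPM. In mouse 1608 the sums of erythroid (46405 CPM), megakaryocyte (106 CPM), neutrophil (252 CPM) and cell cycle genes (837 CPM) were the lowest of all. The part of this difference in cell makeup in the chaperone values was not tested.

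**Figure D4:**
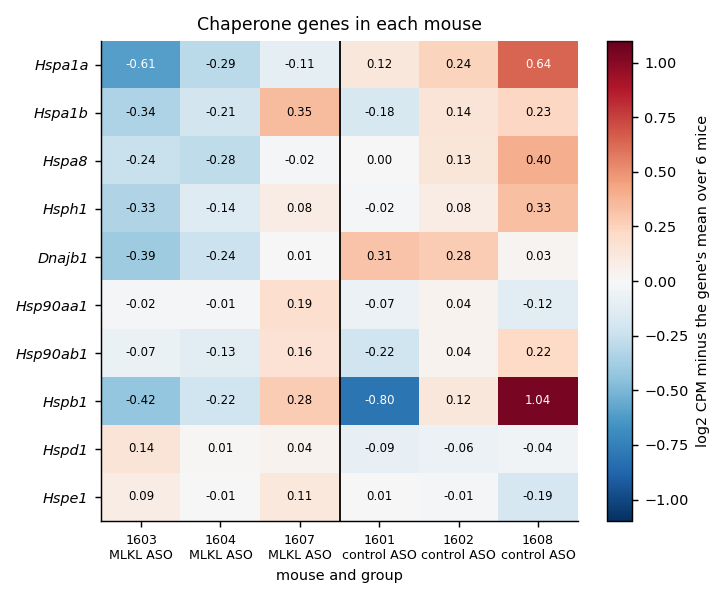
Log2 CPM of each chaperone gene in each mouse minus the mean of that gene over the 6 mice (colour and printed value), MLKL ASO mice left of the line and control ASO mice right. Hspb1 spans -0.80 in mouse 1601 to 1.04 in mouse 1608, whereas Hspd1 stays within -0.086 and 0.14.

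Per kilobase of the principal GENCODE M21 transcript, Hspa8 stood highest with 1503 ± 149.8 CPM per kb in MLKL ASO mice and 1936 ± 277 in control mice (SD, n = 3 each). Hspa1a followed with 713 ± 122 in MLKL ASO mice and 1138 ± 221 in control mice. In MLKL ASO mice this level did not separate from that of Hsp90ab1, at 645 ± 68.6, while in control mice Hsp90ab1, at 659.5 ± 98.9, lay below Hspa1a in each mouse. Hspe1, Hsp90aa1, Hspb1, Dnajb1 and Hspd1 came next, with medians over the 6 mice of 216 to 137 CPM per kb and ranges that touch those of their neighbours. Hsph1, with a median of 31.5 CPM per kb, and Hspa1b, with 20.9, were lowest, and their ranges overlapped. These levels rest on 1 transcript length per gene and on how shared reads were assigned.

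The factors that govern these genes, and the other HSF1-linked genes, did not pass the test either. Hsf1, the heat shock factor itself, measured 57.9, 58.4 and 64.2 CPM in MLKL ASO mice, against 67.0, 67.2 and 82.4 CPM in control mice. These did not overlap, and the log2 fold change was -0.26 with a 95% interval of -0.56 to 0.035 (edgeR adjusted p = 0.464). Hsf2, a related factor, had 8.13 ± 1.14 CPM in MLKL ASO mice and 8.35 ± 2.21 CPM in control mice (SD, n = 3 each). Bag3, an HSF1 target that links HSP70 to autophagy, had 33.5 ± 5.94 CPM in MLKL ASO mice and 35.8 ± 13.1 CPM in control mice, with mouse 1608 highest at 50.7. Of 30 genes of the HSF network, all measured, 17 were below 0 and 13 above, and the list median was -0.069 (log2). It was 0.033 without mouse 1608 and -0.14 without mouse 1607. Over all genes 51.2% were below 0. None of the 30 passed in edgeR, where 2 were lower and 0 higher at an unadjusted p under 0.05. The shares of all genes at that p were 6.96% lower and 4.89% higher. Limma-voom called 0, and DESeq2 called 1 lower, where the share of all genes was 1.33%. Hspa12a and Hspa2, HSP70 relatives, were among the 4 genes with the smallest p of this list, at 7.17 ± 1.35 and 16.9 ± 2.99 CPM in MLKL ASO mice and 10.2 ± 1.01 and 24.0 ± 5.46 CPM in control mice (SD, n = 3 each).

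Cochaperones of HSP90 lay on both sides of 0, with 9 of 14 below, 5 above and a list median of -0.067 (log2). Over all genes 51.2% were below 0. EdgeR called 0 of the 14, as did DESeq2 and limma-voom. At an unadjusted p under 0.05 in edgeR 1 was lower, where the share of all genes was 6.96%. Leaving out mouse 1608 gave a list median of 0.014, and leaving out mouse 1601 one of -0.14. The immunophilin Fkbp4, which couples HSP90 to steroid receptors, measured 164 ± 7.21 CPM in MLKL ASO mice and 198 ± 11.8 CPM in control mice (SD, n = 3 each), without overlap. Unc45a, a myosin chaperone, had 23.0 ± 3.53 CPM in MLKL ASO mice and 29.0 ± 2.95 CPM in control mice, without overlap. Pphln1, which encodes periphilin and is not an established partner of HSP90, had 51.9 ± 0.514 CPM in MLKL ASO mice and 58.1 ± 2.75 CPM in control mice. Ppid, a cyclophilin, was the exception in direction among these 4, with 118 ± 9.49 CPM in MLKL ASO mice and 101 ± 2.87 CPM in control mice.

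Genes of the TRiC chaperonin, which folds actin and tubulin, and of its partner prefoldin leaned the other way. Of 14 genes 13 were above 0, the list median was 0.15 (log2), and 7 were higher in every MLKL ASO mouse than in any control mouse. Over all genes these shares were 48.8% above 0 and 9.02% without overlap. EdgeR called 0 (2 higher at an unadjusted p under 0.05, where the share of all genes was 4.89%), and DESeq2 and limma-voom called 0 too. Tcp1, a TRiC subunit, measured 181, 172 and 165 CPM in MLKL ASO mice, against 160, 132 and 140 CPM in control mice. Cct2, another subunit, had 121 ± 3.95 CPM in MLKL ASO mice and 106 ± 4.85 CPM in control mice (SD, n = 3 each). The prefoldin genes Pfdn4 and Vbp1 had 29.9 ± 4.0 and 109 ± 3.40 CPM in MLKL ASO mice, against 22.7 ± 1.70 and 88.8 ± 8.63 CPM in control mice. The list kept a positive median, 0.11 to 0.16, when any of the mice was left out. Cell cycle genes lay in the same direction, with 18 of 18 above 0 and a median of 0.82. Their summed level was 1548 to 2166 CPM in MLKL ASO mice and 837 to 1700 CPM in control mice, and their part in this was not tested.

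Mitochondrial chaperones and proteases had 9 of 13 genes above 0, compared with 48.8% of all genes, and a list median of 0.050 (log2). EdgeR, DESeq2 and limma-voom called 0 of them, and 0 had an unadjusted p under 0.05 in each. Leaving out mouse 1603 gave a list median of -0.0050, and leaving out mouse 1602 one of 0.10. Hspa9, the mitochondrial HSP70, measured 242, 232 and 248 CPM in MLKL ASO mice, against 206, 207 and 234 CPM in control mice, an overlap of mouse 1604 with mouse 1608. Its exchange factors differed in sign, Grpel1 with 125 ± 4.12 CPM in MLKL ASO mice and 113 ± 7.35 CPM in control mice, and Grpel2 with 29.0 ± 1.5 CPM in MLKL ASO mice and 33.6 ± 2.61 CPM in control mice (SD, n = 3 each). Hscb, a J-domain protein of iron-sulphur assembly, had 30.9 ± 4.38 CPM in MLKL ASO mice and 24.3 ± 5.57 CPM in control mice.

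Chaperones of the endoplasmic reticulum, which answer to the unfolded protein response rather than to HSF1, had 9 of 14 genes below 0 and a list median of -0.092 (log2). Over all genes 51.2% were below 0. EdgeR called 0 of the 14, as did DESeq2 and limma-voom. At an unadjusted p under 0.05 in edgeR 1 was higher and 2 were lower, where the shares of all genes were 4.89% and 6.96%. Hspa5, the HSP70 of this compartment, measured 1555, 1731 and 1840 CPM in MLKL ASO mice, against 1945, 1969 and 2063 CPM in control mice. It did not overlap, with a log2 fold change of -0.22 (edgeR adjusted p = 0.469). Creld2, a stress-induced disulphide isomerase, had 105 ± 4.85 CPM in MLKL ASO mice and 146 ± 20.2 CPM in control mice (SD, n = 3 each). Pdia4, another isomerase, and the J-domain gene Dnajb9 had 173 ± 2.62 and 97.4 ± 12 CPM in MLKL ASO mice, against 225 ± 28.5 and 119 ± 12.4 CPM in control mice. Canx, the membrane lectin calnexin, was opposite, with 990 ± 77.7 CPM in MLKL ASO mice and 769 ± 47.0 CPM in control mice.

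**Figure D5:**
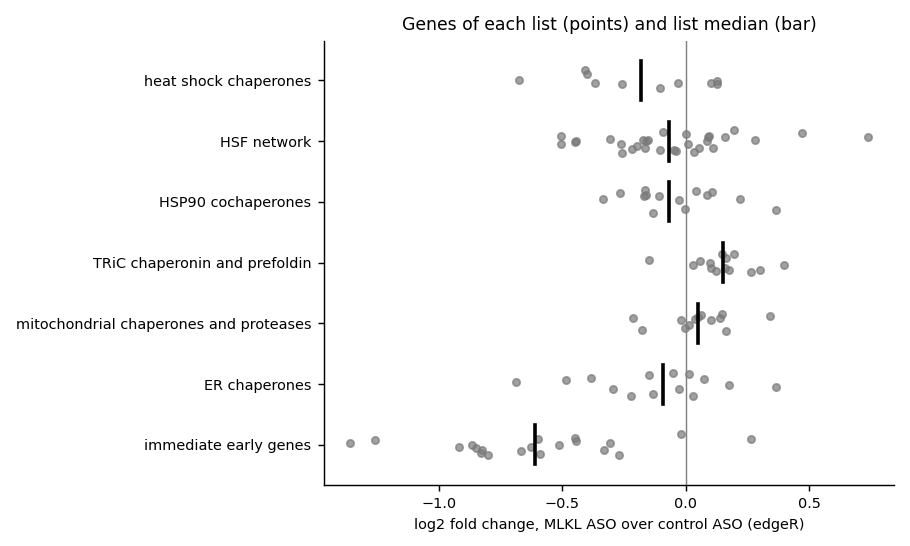
Log2 fold change, MLKL ASO over control ASO (horizontal axis), of the genes of each list (points, with vertical jitter only for legibility) and the list median (black bar). The 10 heat shock chaperones have a median of -0.18, the immediate early genes -0.61, and the TRiC and prefoldin genes 0.15.

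Immediate early genes, which like inducible heat shock genes respond within minutes and also to tissue handling, lay in the same direction as Hspa1a. Not every inducible heat shock gene did, with Hsp90aa1 at 0.10 (log2), and the groups of Hspa1b (-0.11) and Bag3 (-0.092) overlapped. Of 20 immediate early genes 19 were below 0, the list median was -0.61 (log2), and 12 were lower in every MLKL ASO mouse than in any control mouse. Over all genes these shares were 51.2% below 0 and 9.71% without overlap. EdgeR called 0 (12 lower at an unadjusted p under 0.05, where the share of all genes was 6.96%). Limma-voom called 0 and DESeq2 called 5 lower, where the DESeq2 share of all genes was 1.33%. Their summed level was 5254 to 7096 CPM in MLKL ASO mice and 9629 to 11310 CPM in control mice. Junb, an AP-1 factor, had 691 ± 71.8 CPM in MLKL ASO mice and 1774 ± 345 CPM in control mice (SD, n = 3 each; edgeR adjusted p = 0.109, DESeq2 adjusted p = 2.48e-08). Ier2, the cytokine signalling inhibitor Socs3 and the nuclear receptor Nr4a1 had 419 ± 39.7, 32.2 ± 3.89 and 347 ± 46.2 CPM in MLKL ASO mice, against 744 ± 77.2, 76.9 ± 31.1 and 625 ± 162 CPM in control mice. Summed markers of T and NK cells, given above, and of dendritic cells also separated the groups. The sum of 8 dendritic cell markers was 297 to 363 CPM in MLKL ASO mice and 413 to 656 CPM in control mice. Gene by gene, 13 of 15 T and NK cell markers and 3 of 8 dendritic ones were lower without overlap, compared with 9.71% of all genes. In edgeR 1 dendritic marker lay above 0. None of the T and NK or dendritic cell markers was at 0 in any mouse (0 genes). Sums of B cell, plasma cell, erythroid, megakaryocyte and neutrophil markers overlapped between the groups. In edgeR all 11 B cell and all 7 plasma cell markers lay below 0, and 3 and 1 of them were lower without overlap. All 12 erythroid, all 10 megakaryocyte and 9 of 10 neutrophil markers lay above 0. Of these, 3 megakaryocyte markers were higher without overlap, compared with 9.02% of all genes. DESeq2 called 7 of the 15 T and NK cell markers lower (1.33% of all genes). EdgeR and limma-voom called 0 of them. The part of the early response and of cell makeup in the values of Hspa1a, Hspa8 and Dnajb1 was not tested.

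Among 14459 other genes with a mean of at least 1 CPM, the 8 whose log2 CPM over the 6 mice was most like the mean profile of the 10 chaperone genes were Rbm25, Hbegf, Fam50a, Zfp955b, Rere, Arid1b, Zfp52 and Kbtbd8. Their Pearson r with that profile ran from 0.995 for Rbm25 to 0.967 for Kbtbd8, as a description over 6 mice that share library preparation. These r values are the highest among 14459 genes and were not tested. The profile itself was the mean of z-scores, at -0.53, -0.51 and 0.60 in MLKL ASO mice and -0.35, 0.29 and 0.50 in control mice, so mouse 1607 stood with control mice 1602 and 1608, and control mouse 1601 with the other MLKL ASO mice. Rbm25, a splicing regulator, accordingly measured 193, 194 and 228 CPM in MLKL ASO mice and 201, 218 and 229 CPM in control mice. Hbegf, a growth factor that binds heparin, measured 24.2, 23.9 and 34.9 CPM in MLKL ASO mice and 24.0, 33.4 and 34.9 CPM in control mice. For all 8 the groups overlapped. Mouse 1607 did not stand with the control mice in immediate early genes, where its sum of 7096 CPM lay below each of theirs.

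The authors' deposited table gives log2 fold changes of -0.62 for Hspa1a (adjusted p = 0.159), -0.38 for Dnajb1 (adjusted p = 0.333) and -0.38 for Hspa8 (adjusted p = 0.36), from the same libraries. In the authors' deposited table none of the 10 genes passes an adjusted p of 0.05, and Hspa1b stands at -0.052, Hspb1 at -0.35, Hsph1 at -0.25, Hsp90aa1 at 0.030, Hsp90ab1 at -0.049, Hspd1 at 0.11 and Hspe1 at 0.13.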

How the data were processed

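RNA of splenic endothelial cells was sequenced from 3 MLKL ASO and 3 control ASO mice, 1 library per mouse. Per the submitters' processing notes the tools were fastp 0.20.1, Salmon 1.3.0, which splits reads between the transcripts they match, and DESeq2. The sources used here name no build, annotation or use of strand. The deposited table holds estimated counts, of which 69.3% are not whole, and they were rounded. The authors also deposited a DESeq2 table with, per the file headers, a log2 fold change, its error, a mean normalised signal, raw and adjusted p-values and a test score. Its direction was read from the data (Pearson r of 0.977 across 19728 genes with the values here).

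Counts were analysed in R 4.3.3 with edgeR 4.0.16 (default expression filter, TMM, two-sided quasi-likelihood test, Benjamini-Hochberg adjustment over 19745 genes, threshold 0.05). The standard error is the log2 fold change divided by the root of F. Ratios use log2 CPM with a prior count of 2 and exact two-sided permutation tests. DESeq2 1.42.0 and limma 3.58.1 (voom with sample weights) were alternatives, beside other scalings and filters, summing of Hspa1a and Hspa1b, and leaving out each mouse. The tests were tested on simulated data. In edgeR, DESeq2 and limma-voom a p-value sets the group difference against the spread between mice, estimated partly from other genes. Counting error from depth is small for the 10 genes. Error in dividing shared reads between genes did not enter these tests. Mouse numbers do not recur between groups, so no block was fitted. The genes and lists were chosen with earlier results of these data known. Named are the 10 genes, Mlkl, Hsf1, Hsf2, Bag3, Hspa5 and Hspa9, the 4 genes with the smallest p of each chaperone list and of the immediate early list, and the 8 genes of most similar profile. A gene that this rule names in the HSF network list is not reported here. Motifs and 31-base words were searched in RefSeq GRCm38.p6 promoters and GENCODE M21 transcripts, which may not be the annotation the authors used.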

Additional observations from a re-analysis of the deposited data

How the results depend on the processing

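Every one of the 10 genes stayed on the same side of the threshold under the 9 other settings of scaling, filter and test and without each mouse in turn, with 0 higher and 0 lower each time. Since edgeR called few or no genes at all under these settings, as given below, its count of 0 says little about stability. The adjusted p of Hspa1a ran from 0.0784 (DESeq2) to 0.701, and its log2 fold change from -0.80 to -0.51. That of the summed Hspa1a and Hspa1b ran from -0.79 to -0.49. The sign turned for Hspa1b without mouse 1603 (0.012), for Hspb1 without mouse 1608 (0.18, and -0.76 without 1601), and for Hsp90ab1 without mouse 1604 (0.012) or 1608 (0.075). Leaving out mice moved the median of the 10 genes between -0.36 and 0.023, and the count of genes without overlap between 1 and 2 higher and between 3 and 5 lower, a count added after seeing the data. At 5 mice the background of such genes is larger, 13.1% to 16.7% higher and 13.2% to 18.2% lower. Leave-one-out differences of log2 ratios ran from -0.64 to -0.45 for Hspa1a over Hspa1b, -0.37 to -0.19 for both over Hspa8, -0.0095 to 0.24 for Hsp90aa1 over Hsp90ab1, -0.048 to 0.072 for Hspd1 over Hspe1 and -0.25 to 0.089 for Dnajb1 over Hspa8. Hspd1 over Hspe1 turned to 0.037 without mouse 1607 and 0.072 without 1608, Dnajb1 over Hspa8 to 0.0084, 0.089 and 0.0064 without 1603, 1601 and 1602, and Hsp90aa1 over Hsp90ab1 to -0.0095 without 1608. The cause was not tested. The HSF network median ran from -0.14 to 0.033, that of plasma cell markers from -1.08 to -0.35 around -0.78, and that of neutrophil markers from -0.037 to 1.77 around 0.39 (highest without 1601). Ranges of other list medians without 1 mouse were -1.42 to -0.72 (T and NK cell, around -1.18, nearest 0 without 1601), -0.95 to -0.34 (B cell, around -0.73), -0.79 to -0.37 (dendritic, around -0.64), -0.32 to 0.38 (macrophage, around -0.10), 0.53 to 1.40 (megakaryocyte, around 1.04), 0.19 to 1.11 (erythroid, around 0.50), -0.57 to 0.38 (fibroblast, around -0.16, with 1 gene at 0 in a mouse), -0.32 to 0.18 (pan-endothelial, around -0.075), 0.61 to 1.23 (cell cycle, around 0.82) and -0.13 to -0.051 (endoplasmic reticulum, around -0.092). Other scalings moved the median of all genes to 0.0096 at most. Over all genes, edgeR called 1 higher and 1 lower, DESeq2 237 and 290, and limma-voom 9 and 13. EdgeR called 2 and 2 with upper-quartile scaling, 5 and 4 without TMM, 4 and 3 without globin and immunoglobulin genes, 10 and 9 without mouse 1608, 1 and 3 without 1601, and 0 without any of the other mice. No paired analysis was possible because mouse numbers do not recur between the groups.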
